A study of Mus musculus with 18 samples.

Results

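Genes of iron and haem handling were followed in mouse liver, 10 in number: Hamp, Hamp2, Tfrc, Trf, Fth1, Slc40a1, Alas1, Alas2, Bmp6 and Hmox1. Members were taken by gene symbol from the platform annotation of the array, and each gene was represented by the probe set with the highest mean. Of the 10 genes, 9 had a probe set of their own, and all 9 entered the tests over 14694 genes. Trf had none of its own and is described through a probe set that the annotation lists for both Trf and Srprb.

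The RNA came from liver of C57BL/6 mice, either AIM-KO (AIM-/-) or wild type (WT, AIM+/+), measured on 18 Affymetrix arrays with 3 arrays in each of 6 groups. The groups were AIM-KO on normal chow, AIM-KO after 12 weeks and AIM-KO after 20 weeks of a high-fat diet (HFD), and WT on chow, after 12 weeks and after 20 weeks of HFD. AIM, the apoptosis inhibitor of macrophage, is a secreted protein of tissue macrophages encoded by Cd5l. The labels give AIM-/- with no promoter or cell type, and all groups share the strain. The labels give neither age nor sex, so that age and diet duration cannot be told apart. They call the arrays biological replicates without naming separate animals, and the p-values therefore cover the spread among these samples, whatever its source.

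Hepcidin, the product of Hamp, is a hepatocyte hormone that removes the iron exporter ferroportin (Slc40a1) from cell surfaces and so keeps iron inside cells. Its transcription is raised by iron through bone morphogenetic protein 6 (Bmp6), which liver endothelial cells secrete and which signals through SMAD factors in hepatocytes, and by inflammation through interleukin 6 and STAT3. Transferrin (Trf) carries iron in blood, the transferrin receptor (Tfrc) takes it up, and ferritin heavy chain (Fth1) stores it. Haem synthesis begins with 5-aminolevulinate synthase, made by Alas1 in liver and most tissues and by Alas2 in red cell precursors, and haem is broken down by haem oxygenase 1 (Hmox1), which releases its iron.

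Values are the deposited intensities, in arbitrary linear units, and changes are differences of log2(intensity + 3.3) ± SE with 3 arrays in each group. A gene was called when its Benjamini-Hochberg adjusted p over all 14694 genes, from limma, was under 0.05. Cd5l, the targeted gene, read 4 to 23.5 on the AIM-KO arrays and 702.6 to 1926.8 on the WT arrays. Xist, which is transcribed from the silenced X chromosome of female cells, read 2921.6 to 3049.7 on 4 arrays and 7.8 to 26.2 on the other 14. Eif2s3y, a gene of the Y chromosome, read 3.9 to 7.3 in AIM-KO livers at 20 weeks. In WT livers at 20 weeks it read 3.9, 498.4 and 644, and in the other groups 499.5 to 675.1. The split thus runs along sex-linked transcripts. The 4 Xist-high arrays were all 3 AIM-KO arrays at 20 weeks and replicate 2 of WT at 20 weeks, so at 20 weeks the knockout and this split can be separated only through that single WT array, on which a model term for the split rests. No AIM-KO array on chow or at 12 weeks is Xist-high. Changes in AIM-KO at 20 weeks, against chow or 12 weeks, therefore cannot be told apart from the split within AIM-KO. The ratio of 3' to 5' actin signal, which rises as RNA degrades, lay between 2.25 and 4.22, and was highest on WT replicates 1 (3.64) and 3 (4.22) at 20 weeks and WT replicate 2 at 12 weeks (3.79). Hepatocyte markers were bright in every group, with a summed intensity of 9 markers between 46190 and 71930.

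The promoters of the hepcidin genes and of Alas2 are shown because, among the 9 tested members, those 3 genes carried the largest called changes. Each line gives the 160 bases before the RefSeq transcription start in GRCm38.p6, read along the strand of the gene. Capitals in the hepcidin lines mark GGCGCC, the core of the BMP response element of hepcidin, and TTCTTGGAA, its STAT3 site. Capitals in the Alas2 line mark TTATCT, which reads AGATAA on the other strand, a binding sequence of GATA factors. Hamp lies on the minus strand at chr7:30944030-30944189, Hamp2 on the minus strand at chr7:30924182-30924341, and Alas2 on the plus strand at chrX:150547257-150547416.
Hamp: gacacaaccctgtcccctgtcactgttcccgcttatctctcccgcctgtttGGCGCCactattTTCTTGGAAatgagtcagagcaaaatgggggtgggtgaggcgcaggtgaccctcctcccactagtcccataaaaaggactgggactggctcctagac
Hamp2: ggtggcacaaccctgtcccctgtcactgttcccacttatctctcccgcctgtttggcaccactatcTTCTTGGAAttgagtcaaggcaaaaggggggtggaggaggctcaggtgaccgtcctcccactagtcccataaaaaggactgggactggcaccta
Alas2: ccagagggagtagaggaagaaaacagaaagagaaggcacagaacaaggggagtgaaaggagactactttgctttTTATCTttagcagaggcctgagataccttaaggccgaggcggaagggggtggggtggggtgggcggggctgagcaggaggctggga

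The 2 hepcidin windows were identical at 144 of 157 aligned bases (91.7%). The BMP element of Hamp begins 109 bases before its start, and Hamp2 differs there by G55A, counted from 1 at the first printed base of Hamp, so that GGCGCC is not in its window. The STAT3 site stands 97 bases before the start of Hamp and 94 bases before that of Hamp2. The GATA sequence of Alas2 begins 86 bases before its start, and the same letters occur, left in lower case, 128 bases before the start of Hamp and 125 bases before that of Hamp2. Of 32851 RefSeq mouse windows of 250 bases searched on both strands, 9.59% hold GGCGCC, 0.365% hold TTCTTGGAA and 9.99% hold TTATCT. Among the 7 members with a promoter entry, the only other match was GGCGCC, 89 bases before one of the 2 starts of Tfrc. These matches describe letters in the windows and not measured binding.

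A few of these genes were called between diet groups, and most were not. In AIM-KO livers the comparisons with 20 weeks also set Xist-high arrays against others. After 12 weeks of HFD, 3 of the 9 members were called in AIM-KO livers, Hamp, Alas2 and Bmp6, all lower than on chow, where 18.1% of all genes were called, 11.4% as higher and 6.78% as lower. After 20 weeks, 2 members were called in AIM-KO livers, Hamp2 as higher and Alas2 as lower, against 6.96% of all genes, 4.29% as higher and 2.67% as lower. The same 2 genes were called between 20 and 12 weeks in AIM-KO livers, against 3.44% of all genes, 1.31% as higher and 2.12% as lower. In WT livers 1 member was called at 12 weeks, Bmp6 as lower (5.14% of all genes, 3.52% higher and 1.63% lower), and 1 at 20 weeks, Alas2 as lower (14.5% of all genes, 8.72% higher and 5.77% lower). Between 20 and 12 weeks in WT livers 0 members were called (0.0204% of all genes), with 1 at an unadjusted p under 0.05.

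**Figure D1:**
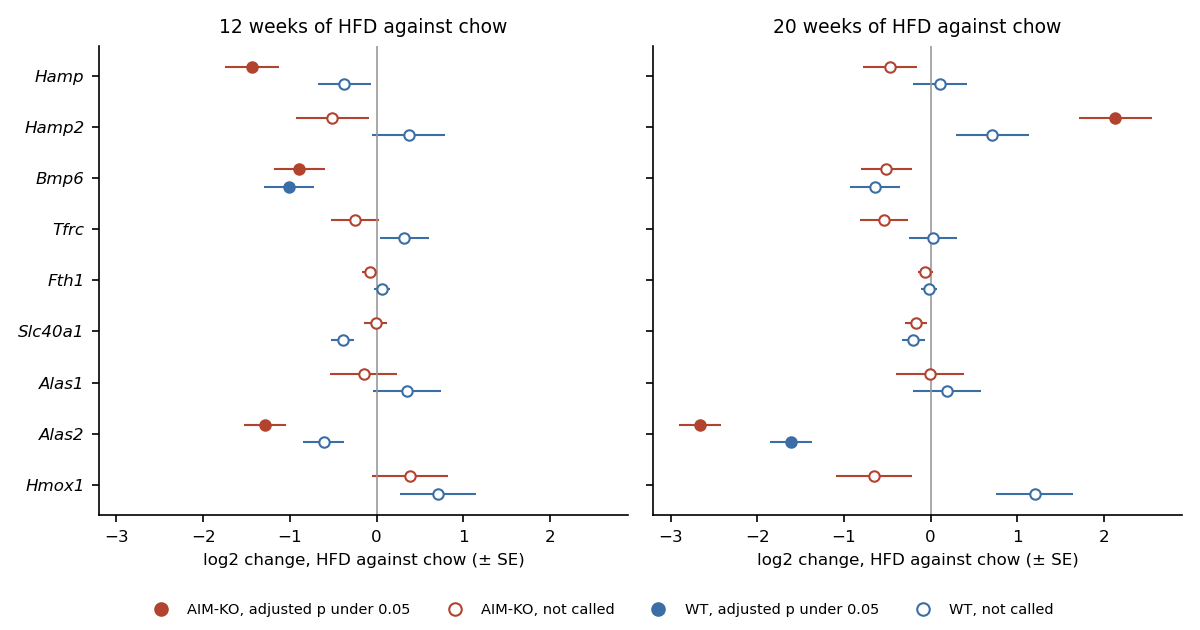
Log2 change of each of the 9 tested members after 12 weeks (left panel) and 20 weeks (right panel) of HFD against chow, with bars of ± SE from the fit of 18 arrays. AIM-KO livers are red and WT livers blue, and filled points have an adjusted p under 0.05. Alas2 lies left of 0 in all 4 comparisons, at -1.29 and -2.66 in AIM-KO and -0.61 and -1.61 in WT, and Hamp2 in AIM-KO at 20 weeks lies furthest to the right at 2.13.

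Hamp was lowest after 12 weeks of HFD in the AIM-KO livers. It read 1744.9, 1827.5 and 4532.3 on the 3 AIM-KO arrays at 12 weeks, against 7436.7, 6813.2 and 5752.3 on the AIM-KO chow arrays. Every 12 week array lay below every chow array, and the first 2 lay far below the third. Hamp fell by 1.44 ± 0.31 on the log2 scale (adjusted p = 0.00298), to a mean of 2702 ± 1586 in AIM-KO livers at 12 weeks, against 6667 ± 851.6 in AIM-KO livers on chow (SD, n = 3 each). The call was kept in 18 of 18 alternatives, with changes between -1.89 and -1.2 and adjusted p between 0.000138 and 0.0245. The second Hamp probe set gave -1.53 (adjusted p = 0.0064), and its correlation with the first over the 18 arrays was 0.99. That second set is of a kind that can bind related transcripts. In bulk liver RNA, fewer cells of a type and less RNA per cell cannot be told apart.

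After 20 weeks Hamp was not called against chow in AIM-KO livers, where all 3 of the 20 week arrays are Xist-high. It read 3669.7, 5554.3 and 5323 on the AIM-KO arrays at 20 weeks, again below all 3 AIM-KO chow arrays. The change against chow was -0.47 ± 0.31 (adjusted p = 0.431), and against 12 weeks it was 0.97 ± 0.31 (adjusted p = 0.0985). Without replicate 3 of AIM-KO at 12 weeks the difference between 20 and 12 weeks became 1.42 (adjusted p = 0.0107), and its adjusted p lay between 0.0107 and 0.739 over 18 alternatives.

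WT livers showed a wider spread of Hamp on chow and smaller differences. Hamp read 2789.3, 6810.4 and 4459.8 on the WT chow arrays, 2864.5, 3385.9 and 4079.2 at 12 weeks and 4335.2, 4805.1 and 5117.7 at 20 weeks. The 3 groups overlapped except that every 20 week array was above every 12 week array. Relative to chow, Hamp changed on average by -0.37 ± 0.31 after 12 weeks (adjusted p = 0.58). After 20 weeks the difference was 0.11 ± 0.31 (adjusted p = 0.869). The difference of the 12 week diet effect, AIM-KO minus WT, was -1.08 ± 0.44 with a 95% interval of -1.99 to -0.16, and it did not pass the threshold (adjusted p = 0.453).

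Hamp2 encodes hepcidin 2, the product of a duplicated gene found in mice, whose overexpression in mice did not cause the iron-deficient anaemia that overexpressed hepcidin causes. It was highest in AIM-KO livers at 20 weeks, where it read 4426.7, 5233.2 and 5733.4, against 1070.3, 1236.2 and 1180.5 in AIM-KO livers on chow. All 3 of these 20 week arrays were above every array of the other groups. Hamp2 rose by 2.13 ± 0.42 against chow (4.39-fold on the log2 scale used, adjusted p = 0.00373) and by 2.65 ± 0.42 against 12 weeks (6.27-fold, adjusted p = 0.0043). At 12 weeks it read 486.4, 636.4 and 1723.9 in AIM-KO livers, with 2 arrays below and 1 above the chow range, and changed by -0.51 ± 0.42 against chow (adjusted p = 0.464).

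The Hamp2 signal followed the Xist split. In WT livers at 20 weeks Hamp2 read 3678.5 on the Xist-high array (replicate 2) and 1183.7 and 813.1 on the other 2 arrays, against 776.7, 1033.2 and 996.1 on WT chow arrays. Over all groups it read 3678.5 to 5733.4 on the 4 Xist-high arrays and 486.4 to 1723.9 on the other 14. With the Xist split as a model term the change at 20 weeks against chow in AIM-KO was 0.23 (adjusted p = 0.895), and that between 20 and 12 weeks was 0.74 (adjusted p = 0.797). Over 18 alternatives the adjusted p of these 2 results was as low as 7.03e-06 and 6.45e-05, and each was called in the other 17. In WT livers at 12 weeks Hamp2 read 1294.7, 1119.5 and 1186.8, above all WT chow arrays, a change of 0.37 ± 0.42 (adjusted p = 0.705). In WT the 20 week change against chow was 0.71 ± 0.42 (adjusted p = 0.291), and 0.08 without the Xist-high array (adjusted p = 0.911). The probe set used is of a kind that can bind related transcripts, and the other Hamp2 probe set read 0.9 to 17.8 on all arrays, too dim to be tested.

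**Figure D2:**
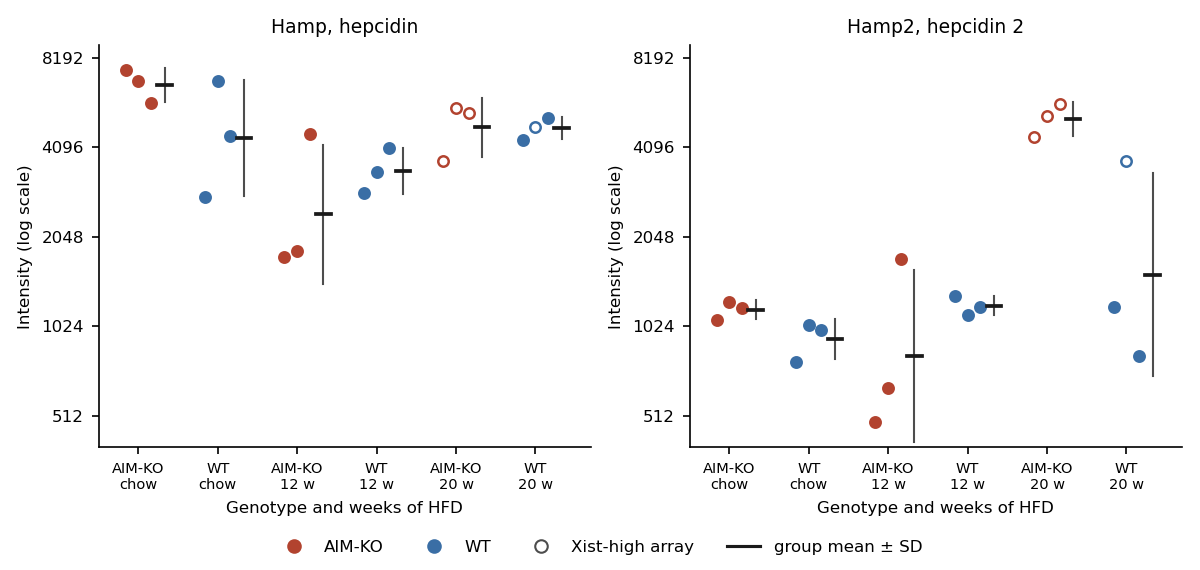
Intensity of the Hamp (left) and Hamp2 (right) probe sets on each of the 18 arrays, on a log axis, by genotype (AIM-KO red, WT blue) and weeks of HFD. Open points are Xist-high arrays, and the black line and bar are the mean ± SD of the log2 values of 3 arrays. For Hamp 2 of the 3 AIM-KO points at 12 weeks are the lowest, at 1744.9 and 1827.5, and the 4 open points are the highest for Hamp2, between 3678.5 and 5733.4.

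Bmp6, the iron-regulated ligand upstream of Hamp, was dim and lower after 12 weeks of HFD in both genotypes. It read 8.8, 22.2 and 15.3 in AIM-KO livers at 12 weeks, against 24.4, 38.4 and 28.5 in AIM-KO livers on chow. In WT livers it read 16, 9 and 10.2 at 12 weeks, against 25.7, 22.1 and 32.6 on chow. In each genotype all 12 week arrays were below all chow arrays. Bmp6 fell by 0.89 ± 0.29 in AIM-KO (adjusted p = 0.0394) and by 1.01 ± 0.29 in WT (adjusted p = 0.0498).

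Both Bmp6 calls were near the threshold. The AIM-KO call was kept in 11 of 18 alternatives (adjusted p between 0.00795 and 0.214) and was lost without AIM-KO chow replicate 2 or 3 and without AIM-KO 12 week replicate 1 or 3. The WT call was kept in 5 of 18 (adjusted p between 0.0421 and 0.184) and was lost on leaving out any single array of the 2 groups. Bmp6 exceeded its array's 40th percentile, which lay between 9.5 and 14.2, on 15 of 18 arrays. Its readings of 8.8 (AIM-KO replicate 1) and 9 (WT replicate 2) at 12 weeks lay below the lowest of these percentiles. The size of the 12 week falls is therefore uncertain. At 20 weeks it read 16, 23.2 and 21.5 in AIM-KO livers and 16.1, 18.2 and 13.6 in WT livers, below the chow arrays of the same genotype. Those changes were -0.51 ± 0.29 in AIM-KO (adjusted p = 0.35) and -0.64 ± 0.29 in WT (adjusted p = 0.161).

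Markers of the cells that make these proteins also moved with diet. Of all genes, 11.4% were called higher and 6.78% lower in AIM-KO at 12 weeks, and 3.52% and 1.63% in WT at 12 weeks. Of 10 markers of sinusoidal endothelium, the known liver source of Bmp6, 3 were called higher in AIM-KO at 12 weeks and 0 lower, with a summed intensity of 2336 to 2661, against 1832 to 2152 on chow. In WT at 12 weeks 1 of the 10, the hyaluronan receptor Lyve1, was called higher, and the sum was 2021 to 2572, against 2125 to 2395 on chow. Of 9 tested hepatocyte markers, 7 were called lower in AIM-KO at 12 weeks, among them the urea cycle gene Cps1 (-0.85 ± 0.14, adjusted p = 0.000273) and the tyrosine-degrading enzyme gene Tat (-1.29 ± 0.28, adjusted p = 0.00316), and 0 of the marker values on any array were 0. Their sum was 46190 to 50020 in AIM-KO at 12 weeks, against 65690 to 69860 on chow. In WT at 12 weeks 0 of the 9 were called, with 2 at an unadjusted p under 0.05. The part of these markers in the Hamp and Bmp6 results was not tested.

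Of the 23 other genes listed for hepcidin control, 21 were tested. For these and the lists that follow, the shares of all genes called against chow were 18.1% at 12 weeks and 6.96% at 20 weeks in AIM-KO, and 5.14% at 12 weeks and 14.5% at 20 weeks in WT. In AIM-KO livers 2 were called higher and 2 lower at 12 weeks (median change -0.01, against 0.04 for all genes), and 2 higher and 0 lower at 20 weeks (median -0.08, against 0.04). In WT livers 1 was called higher and 0 lower at 12 weeks (median -0.16, against 0), and 2 higher and 1 lower at 20 weeks (median -0.16, against -0.01). Hemojuvelin (Hjv), the BMP co-receptor of hepatocytes, read 566.5 to 646.3 in AIM-KO livers at 12 weeks and 242 to 391.7 in AIM-KO livers on chow, and rose by 1.01 ± 0.16 (adjusted p = 0.000265). Inhbb, which encodes the subunit of activin B, a ligand of the same SMAD pathway, read 54.2 to 97.1 at 12 weeks and 14 to 19.3 on chow in AIM-KO livers, a rise of 2.02 ± 0.27 (adjusted p = 6.1e-05). In WT livers Inhbb read 36.8 to 72 at 20 weeks and 14.5 to 22.1 on chow, a rise of 1.44 ± 0.27 (adjusted p = 0.00147). The WT call was lost with the mean of the gene's probe sets, and its change lay between 0.63 and 1.67 over the alternatives. Acvr2b was among the genes called lower in AIM-KO livers at 12 weeks, with changes between -1.16 and -0.44 over the alternatives. The Acvr2b call was kept in 1 of 6 fits with 1 array removed.

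The sensor of transferrin-bound iron, Tfr2, was called lower in WT livers at 20 weeks. It read 2504.4 to 3169.8 there and 3614.7 to 3768.5 on chow, with no overlap, and fell by 0.41 ± 0.1 (adjusted p = 0.0072), a call lost when only the groups compared were fitted. The transcription targets of BMP signalling in the list (Id1, Id2, Id3, Smad6, Smad7 and Atoh8, singled out after their values were seen) gave 0 calls in 24 limma tests of HFD against chow. Their adjusted p lay between 0.147 and 0.992, and 3 of the 24 had an unadjusted p under 0.05.

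Hepcidin also responds to interleukin 6, and genes of that pathway and of the acute phase formed another list. Of 21 tested genes, 5 were called higher and 3 lower in AIM-KO at 12 weeks, and 2 higher and 1 lower at 20 weeks. In WT livers 4 were called higher and 0 lower at 12 weeks, and 7 higher and 3 lower at 20 weeks. The iron-siderophore-binding protein Lcn2 read 1027.5 to 1131.2 in AIM-KO livers at 12 weeks, against 42.6 to 58.9 on chow (4.42 ± 0.4, adjusted p = 1.39e-06). In WT livers Lcn2 read 221.6 to 769.9 at 12 weeks, against 25.5 to 50.5 on chow (3.79 ± 0.4, adjusted p = 1.98e-05). The serum amyloid gene Saa2 rose by 2.82 ± 0.42 in AIM-KO at 12 weeks (adjusted p = 0.000167) and by 3.36 ± 0.42 in WT at 12 weeks (adjusted p = 0.000109). The list medians stayed between -0.04 and 0.07, against -0.01 to 0.04 for all genes.

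Slc40a1, the ferroportin gene, varied within 1587 and 2552 over all 18 arrays. It read 1710.3, 2016.3 and 1587 in WT livers at 12 weeks, against 2262.3, 2363.4 and 2299.2 in WT livers on chow. These groups did not overlap, and the change of -0.39 ± 0.13 missed the threshold (adjusted p = 0.104, between 0.0416 and 0.281 over 18 alternatives, 1 of them called). In AIM-KO livers at 12 weeks it read 1741.2, 1937.4 and 2231, against 2552, 1659.5 and 1827.5 on chow, which overlapped (-0.01 ± 0.13, adjusted p = 0.962). At 20 weeks the changes were -0.17 ± 0.13 in AIM-KO (adjusted p = 0.53) and -0.2 ± 0.13 in WT (adjusted p = 0.363).

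Tfrc, the receptor for transferrin, read 444.7, 535.6 and 723.7 in AIM-KO livers on chow, 469.2, 461.9 and 472.6 at 12 weeks and 395.5, 460 and 307.6 at 20 weeks. In WT livers it read 491.6, 379.7 and 295.5 on chow, 556.2, 352.2 and 555 at 12 weeks and 483, 223.5 and 544.2 at 20 weeks. The groups overlapped in each comparison with chow, and the lowest value of all arrays came from the Xist-high WT array. Changes against chow lay between -0.54 ± 0.28 (AIM-KO at 20 weeks, adjusted p = 0.29) and 0.32 ± 0.28 (WT at 12 weeks, adjusted p = 0.585).

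The iron store gene Fth1 varied least. It read 8076.3 to 9621.9 in AIM-KO livers on chow, 8227.6 to 8582.2 at 12 weeks and 8456.9 to 8488.7 at 20 weeks, and in WT livers 7645.8 to 8930.8 on chow, 8570.6 to 8885.3 at 12 weeks and 7848.7 to 8840.6 at 20 weeks. The highest array was 1.26 times the lowest. Its changes against chow lay between -0.08 and 0.06 with an SE of 0.09, none with an adjusted p under 0.591. Quantile normalization turned the AIM-KO change at 12 weeks to 0.24 (adjusted p = 0.0473), the lowest adjusted p of its 18 alternatives (the highest was 0.924). The probe set shared by Trf and Srprb, which cannot be assigned to the transferrin gene alone, read 7154.2 to 9664.8 and changed by -0.3 ± 0.1 at 12 weeks and -0.18 ± 0.1 at 20 weeks in AIM-KO, and by -0.14 ± 0.1 and -0.1 ± 0.1 at those times in WT, and was not tested.

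Of the other genes of iron uptake, storage and export, 21 were tested. In AIM-KO livers 1 was called higher and 0 lower at 12 weeks (18.1% of all genes), and 1 higher and 1 lower at 20 weeks (6.96%). In WT livers 3 were called higher and 1 lower at 12 weeks (5.14%), and 2 higher and 1 lower at 20 weeks (14.5%). Fbxl5, the iron-sensing ubiquitin ligase subunit that removes iron regulatory proteins, was called higher in all 4 comparisons. It read 254.2 to 277 in AIM-KO livers on chow, 371.5 to 381.6 at 12 weeks and 328.2 to 403.4 at 20 weeks, and 212.3 to 241.1 in WT livers on chow, 305.4 to 364.1 at 12 weeks and 295.1 to 381.4 at 20 weeks. No HFD array overlapped the chow arrays of its genotype, and the rises were 0.52, 0.45, 0.53 and 0.52 (each ± 0.11), in that order. The call at 20 weeks in AIM-KO (adjusted p = 0.0212) was lost with the Xist term, where the change was 0.68 (adjusted p = 0.101). It was kept in 3 of 6 fits with 1 array removed, being lost without AIM-KO chow replicate 1 or AIM-KO 20 week replicate 1 or 2. The WT call at 12 weeks (adjusted p = 0.00904) was lost without WT 12 week replicate 1.

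Alas2, the erythroid 5-aminolevulinate synthase, was called in more comparisons than any other member, 4, and was lower with HFD in both genotypes. It read 391.7, 388 and 301 in AIM-KO livers on chow, 148.1, 142.9 and 141.2 at 12 weeks and 50.3, 46.9 and 66 at 20 weeks. The 3 AIM-KO groups did not overlap. The changes against chow were -1.29 ± 0.24 for 12 weeks (adjusted p = 0.00117) and -2.66 ± 0.24 for 20 weeks (adjusted p = 2.22e-06), and that between 20 and 12 weeks was -1.37 ± 0.24 (adjusted p = 0.0061). The mean at 20 weeks was 54.4 ± 10.19 in AIM-KO livers, against 360.2 ± 51.33 on chow (SD, n = 3 each), a fold of 0.158 on the log2 scale used.

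In WT livers Alas2 read 326.2, 304.9 and 300 on chow, 157.8, 230.2 and 229.4 at 12 weeks and 114.4, 56.3 and 150.5 at 20 weeks. The 3 WT groups did not overlap either, and the lowest value was that of the Xist-high array. Alas2 fell by 1.61 ± 0.24 at 20 weeks (adjusted p = 0.000239). The WT changes at 12 weeks (-0.61 ± 0.24, adjusted p = 0.169, between 0.023 and 0.489 over 18 alternatives) and between 20 and 12 weeks (-1.01 ± 0.24, adjusted p = 0.201) did not pass. Without the Xist-high array the WT change at 20 weeks was -1.22 (adjusted p = 0.000209), and it was called in all 19 alternatives. The actin ratios of WT at 20 weeks were 3.64, 2.54 and 4.22, against 2.53 to 2.75 on chow, and with a term for that ratio the WT change was -2 (adjusted p = 1.37e-05), the lowest of those alternatives (the highest was 0.00737).

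The Xist split moved with Alas2 as it did with Hamp2, in the opposite direction. Alas2 read 46.9 to 66 on the 4 Xist-high arrays and 114.4 to 391.7 on the other 14. With a term for the split the AIM-KO change at 20 weeks was -1.48 (adjusted p = 0.0218), still called, and the change between 20 and 12 weeks was -0.19 (adjusted p = 0.92). Over 18 alternatives the highest adjusted p of these results were those 2 values, and the lowest were 1.64e-08 and 6.45e-05. The AIM-KO change at 12 weeks involves no Xist-high array and was called in all 18 alternatives, with an adjusted p of at most 0.00717.

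Transcripts of red cells, in which Alas2 normally acts, are given beside it. Of 23 red cell and erythroblast markers, 16 had a probe set of their own and 13 were tested. The summed intensity of the 16 was 288 to 371.6 in AIM-KO livers on chow, 302.4 to 347 at 12 weeks and 300.3 to 410.9 at 20 weeks, and 265.2 to 388.1 in WT livers on chow, 284.7 to 317.6 at 12 weeks and 252.7 to 380.1 at 20 weeks, with no value at 0. These ranges overlapped, and the call in AIM-KO at 12 weeks was 1 gene, the erythroid transcription factor Klf1, which read 22.8 to 28.4 there and 37 to 59.8 on chow (-0.91 ± 0.23, adjusted p = 0.011, lost without AIM-KO chow replicate 2). Klf1 was also called in WT at 20 weeks (-0.72 ± 0.23, adjusted p = 0.046), a call kept in 2 of 6 fits with 1 array removed and lost without WT chow replicate 2 or 3 or WT 20 week replicate 1 or 3, and 0 of the 13 were called in AIM-KO at 20 weeks by limma (0 also at an unadjusted p under 0.05). The median intensity of an array was 15 to 21.1, so the 16 markers were dim on average. Their sums cannot show whether red cell content changed.

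The globin genes share probe sets, 3 for alpha and 1 for beta globins, and these were summed per array. The sum was 10190 to 11630 in AIM-KO livers on chow, 13230 to 13490 at 12 weeks and 9967 to 12370 at 20 weeks. In WT livers it was 9648 to 11750 on chow, 7097 to 10950 at 12 weeks and 1303 to 12010 at 20 weeks. The lowest sum, 1303, came from WT replicate 1 at 20 weeks, on which Alas2 read 114.4, and the highest of that group, 12010, from the Xist-high array, on which Alas2 read 56.3. The third array of that group had a sum of 5179. The 3 lowest sums of all arrays, 1303, 5179 and 7097 (WT replicate 2 at 12 weeks), were on the 3 arrays with the highest actin 3'/5' ratios, 3.64, 4.22 and 3.79, and the part of RNA quality in these sums was not tested. Over the 18 arrays, which share their diet groups, the correlation of Alas2 with the 4 globin probe sets lay between -0.03 and 0.07.

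**Figure D3:**
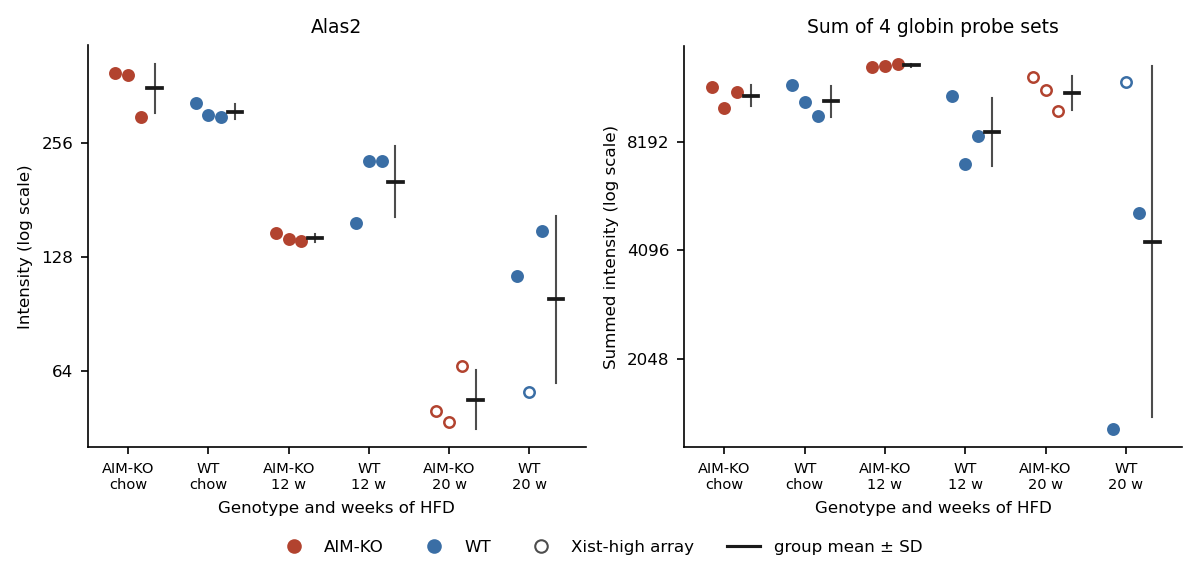
Intensity of the Alas2 probe set (left) and summed intensity of 4 globin probe sets (right) on each of 18 arrays, on log axes, by genotype (AIM-KO red, WT blue) and weeks of HFD. Open points are Xist-high arrays, and the black line and bar are the mean ± SD of the log2 values of 3 arrays. Alas2 is lower at 20 weeks than on chow in both genotypes, while the globin sum of AIM-KO livers stays between 9967 and 13490 and 1 WT array at 20 weeks falls to 1303.

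Alas1, the housekeeping synthase that sets the rate of haem synthesis in liver, gave no call. It read 2617.7, 4020.5 and 6597 in AIM-KO livers on chow, 3410.1, 3247.3 and 4583.7 at 12 weeks and 3248.6, 4974.7 and 4236.9 at 20 weeks. In WT livers it read 1507.6, 2674.8 and 3450.5 on chow, 2882.3, 1701 and 5853.2 at 12 weeks and 1942.9, 3214.8 and 3308.1 at 20 weeks. The groups overlapped in every comparison, and changes against chow lay between -0.15 and 0.35 with an SE of 0.39. The interval at 12 weeks in AIM-KO was -0.96 to 0.66, so a change of 1.5-fold either way was within it.

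Later steps of haem synthesis were covered by 11 tested genes beside the members. Of these, 2 were called lower and 0 higher in AIM-KO at 12 weeks (median of the list -0.15, against 0.04 for all genes). There 18.1% of all genes were called, 6.78% as lower. In WT at 20 weeks 1 was called lower, against 5.77% of all genes (median -0.23, against -0.01). At 20 weeks in AIM-KO and 12 weeks in WT 0 were called, with 3 and 1 at an unadjusted p under 0.05. Abcb10, a mitochondrial inner membrane transporter needed for haem synthesis, read 153.2 to 166.1 in AIM-KO livers at 12 weeks, against 219.6 to 289.4 on chow (-0.67 ± 0.15, adjusted p = 0.00391). In WT livers at 20 weeks it read 131.3 to 154.3, against 214 to 302.3 on chow (-0.85 ± 0.15, adjusted p = 0.00076). Ferrochelatase (Fech), which inserts iron into protoporphyrin to form haem, read 997.3 to 1104.7 in AIM-KO livers at 12 weeks, against 1244.6 to 1655.3 on chow (-0.44 ± 0.11, adjusted p = 0.00742). Both genes were without overlap of arrays in these comparisons, and each call held in 6 of 6 fits with 1 array removed.

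The list of regulators and haem-using companions of Alas1 gave calls as lower in the 4 comparisons with chow. Of 12 tested genes, 4 were called lower in AIM-KO at 12 weeks (median -0.38, against 0.04 for all genes), 2 at 20 weeks (median -0.05), 1 in WT at 12 weeks (median -0.28, against 0) and 2 at 20 weeks (median -0.2, against -0.01), and 0 were called higher against chow. Between 20 and 12 weeks in AIM-KO 1 was called higher and 0 lower. Cyp1a2, a haem-containing cytochrome of hepatocytes, was called in all 4 comparisons. It read 3255.4 to 5027.4 in AIM-KO livers on chow, 943.9 to 1040.2 at 12 weeks and 1367.6 to 1833.1 at 20 weeks, and fell by 1.99 ± 0.19 (adjusted p = 2.55e-06) and 1.32 ± 0.19 (adjusted p = 0.000314). In WT livers it read 4167.9 to 5435.2 on chow, 1187.4 to 2255.7 at 12 weeks and 1031.7 to 1240.8 at 20 weeks, and fell by 1.52 ± 0.19 (adjusted p = 0.00011) and 2.15 ± 0.19 (adjusted p = 9.11e-07). With the Xist term the AIM-KO change at 20 weeks was -1.21 and was no longer called (adjusted p = 0.102).

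Hmox1, the inducible haem oxygenase, varied widely within groups and gave no call. It read 76.3, 28.7 and 77.6 in AIM-KO livers on chow, 107.6, 60.4 and 62.2 at 12 weeks and 28.1, 27.9 and 51.5 at 20 weeks. In WT livers it read 21.4, 60 and 37.5 on chow, 126.9, 55.9 and 32.9 at 12 weeks and 85.9, 77.2 and 103.4 at 20 weeks. All WT arrays at 20 weeks were above all WT chow arrays, whereas the AIM-KO arrays at 20 weeks and on chow overlapped. The changes at 20 weeks were -0.65 ± 0.44 in AIM-KO (adjusted p = 0.452) and 1.2 ± 0.44 in WT (adjusted p = 0.074, between 0.0385 and 0.261 over 19 alternatives). The WT change passed without WT chow replicate 2 (1.53, adjusted p = 0.048).

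Of 13 other tested genes of haem transport and breakdown, 1 was called higher and 1 lower in AIM-KO at 12 weeks (18.1% of all genes) and 0 higher and 2 lower at 20 weeks (6.96%). In WT 0 were called at 12 weeks (5.14% of all genes, and 3 of the 13 at an unadjusted p under 0.05), and 1 was called lower at 20 weeks (14.5%). Bach1, the haem-sensing repressor of Hmox1, read 695.1 to 991.7 in AIM-KO livers on chow, 453.4 to 487.9 at 12 weeks and 360.1 to 460 at 20 weeks. The groups did not overlap with chow, and Bach1 fell by 0.87 ± 0.19 (adjusted p = 0.00385) and by 1.06 ± 0.19 (adjusted p = 0.00218). With the Xist term its change at 20 weeks was -1.15 and was no longer called (adjusted p = 0.125). Flvcr1, a haem exporter, read 122.6 to 145 in AIM-KO livers at 12 weeks, against 62.4 to 93 on chow (0.85 ± 0.2, adjusted p = 0.00641). That call was lost with the mean of the gene's probe sets, and its change lay between 0.19 and 1.01 over the alternatives.

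Hmox1 is also a target of the oxidative stress factor NRF2, and 12 genes of that list were tested. In AIM-KO livers 4 were called higher and 1 lower at 12 weeks (median 0.34, against 0.04 for all genes) and 0 higher and 2 lower at 20 weeks (median -0.08). In WT livers 0 were called higher and 1 lower at 12 weeks (median -0.08), and 0 higher and 2 lower at 20 weeks (median 0.04). The antioxidant enzyme Srxn1 read 345 to 502.9 in AIM-KO livers at 12 weeks, against 123.3 to 198.8 on chow (1.44 ± 0.26, adjusted p = 0.000662). Gclm, a subunit of the glutathione-forming ligase, read 1077.4 to 1332.8 in WT livers at 20 weeks, against 1777.1 to 1934.3 on chow (-0.59 ± 0.1, adjusted p = 0.000511).

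Macrophages and stellate cells also carry iron and haem genes, and some of their markers were called higher on HFD. Of all genes, 11.4% were called higher at 12 weeks and 4.29% at 20 weeks in AIM-KO, and 3.52% and 8.72% in WT. Of 10 macrophage markers, 5 were called higher in AIM-KO at 12 weeks (summed intensity 4592 to 5826, against 2756 to 3193 on chow) and 5 in WT at 20 weeks (4439 to 5508, against 2998 to 3193). The macrophage counts were 1 in AIM-KO at 20 weeks (3196 to 4471) and 1 in WT at 12 weeks (3130 to 4647, which overlapped chow). Of 10 stellate cell markers, 8 were called higher in AIM-KO at 12 weeks, 6 at 20 weeks, 4 in WT at 12 weeks and 9 at 20 weeks, and 0 lower in any of these. The part of these markers in the values of Hmox1, Slc40a1 and the lists was not tested.

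**Figure D4:**
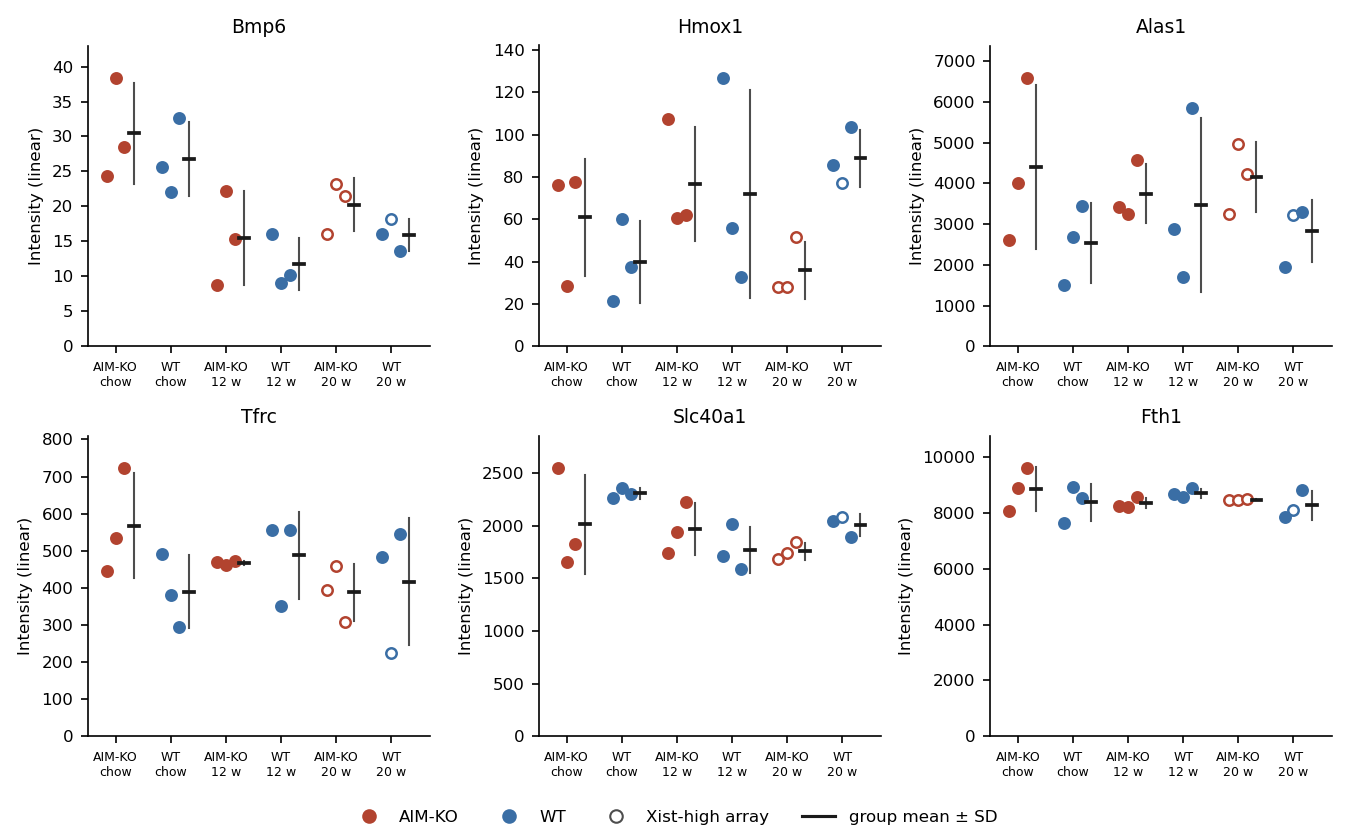
Intensity, on linear axes that start at 0, of Bmp6, Hmox1, Alas1, Tfrc, Slc40a1 and Fth1 on each of 18 arrays, by genotype (AIM-KO red, WT blue) and weeks of HFD. Open points are Xist-high arrays, and the black line and bar are the mean ± SD of 3 arrays. Bmp6 at 12 weeks lies below chow in both genotypes, Hmox1 at 20 weeks lies between 27.9 and 51.5 in AIM-KO and between 77.2 and 103.4 in WT, and Fth1 stays within 7645.8 and 9621.9.

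The knockout itself gave no call among these genes. With AIM-KO set against WT, limma called 0 of the 9 members on chow (0.0272% of all genes were called), 0 at 12 weeks (0.0749%), 0 at 20 weeks (0.157%) and 0 on average over the 3 diets (0.0272%). At an unadjusted p under 0.05 the counts were 0, 0, 3 and 2. The 2 on average over the diets were Alas1 (0.54 ± 0.22, adjusted p = 0.7) and Alas2 (-0.37 ± 0.14, adjusted p = 0.65), and Alas2 was called in 1 of 29 alternatives, without WT replicate 2 at 20 weeks (adjusted p = 0.0327). On chow Hamp averaged 6667 ± 851.6 in AIM-KO livers and 4686 ± 2020 in WT livers (SD, n = 3 each), and the arrays overlapped (0.59 ± 0.31, adjusted p = 0.716). At 12 weeks Hamp averaged 2702 ± 1586 in AIM-KO livers and 3443 ± 609.4 in WT livers, again with overlap (-0.48 ± 0.31, adjusted p = 0.726).

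The 3 members nearest to a call between the genotypes were Hamp2, Alas2 and Hmox1 at 20 weeks, where the groups also differ in Xist. Hamp2 averaged 5131 ± 659.3 in AIM-KO livers and 1892 ± 1558 in WT livers, without overlap (1.74 ± 0.42, adjusted p = 0.0878). Alas2 averaged 54.4 ± 10.19 in AIM-KO livers and 107.1 ± 47.53 in WT livers, with the Xist-high WT array inside the AIM-KO range (-0.84 ± 0.24, adjusted p = 0.134). Hmox1 averaged 35.83 ± 13.57 in AIM-KO livers and 88.83 ± 13.34 in WT livers, without overlap (-1.28 ± 0.44, adjusted p = 0.202, at least 0.0746 over 18 alternatives). The Xist-high WT array read 77.2 for Hmox1, below the other WT arrays and above all 3 AIM-KO arrays.

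Which WT array was counted decided some of these results. Without WT replicate 2 at 20 weeks, the Xist-high one, Hamp2 was called between genotypes (2.37, adjusted p = 0.000577) and so was Alas2 (-1.24, adjusted p = 0.000839), and then every AIM-KO array is Xist-high and no WT array is. With a term for the split the differences were 0.47 for Hamp2 and -0.06 for Alas2, both at an adjusted p of 0.999. Over 18 alternatives each of these 2 results was called in 2, and those with the lowest adjusted p left out that WT array.

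The diet effect was not shown to differ between the genotypes for any member. Limma called 0 of 9 for the difference of the 12 week effect (0.00681% of all genes) and 0 of 9 for that of the 20 week effect (0.00%), with 1 and 3 members at an unadjusted p under 0.05. For Alas2 the difference, AIM-KO minus WT, was -0.69 ± 0.35 for the 12 week effect (adjusted p = 0.554). For the 20 week effect it was -1.05 ± 0.35 (adjusted p = 0.339). Without WT replicate 2 at 20 weeks the 20 week difference was called for Alas2 (-1.44, adjusted p = 0.00652) and for Hamp2 (2.05, adjusted p = 0.0237), and over 23 alternatives their adjusted p reached 1. For Bmp6 the difference between the genotypes' effects was 0.12 ± 0.41 at 12 weeks with an interval of -0.74 to 0.98.

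When the 6 groups were ordered by mean, neighbours in the order differed at an adjusted p of 0.088 or more for every member. Hamp ran, high to low, AIM-KO chow, AIM-KO 20 weeks, WT 20 weeks, WT chow, WT 12 weeks and AIM-KO 12 weeks. Alas2 ran AIM-KO chow, WT chow, WT 12 weeks, AIM-KO 12 weeks, WT 20 weeks and AIM-KO 20 weeks. Over the 18 arrays, which share group and array scaling, 2 of 36 pairs of members had a Pearson correlation above 0.5 in size. These were Hamp2 with Alas2 (-0.74) and Fth1 with Alas1 (0.68).

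Outside the members, the genes most like the 3 with most calls were found by Pearson correlation of log2 values over the same 18 arrays. Alas2 was most like C6, a complement component (0.966), Ttc39c (0.957) and Nat8, an N-acetyltransferase gene (0.951). Hamp2 was most like the organic anion transporter gene Slc22a26 (0.934), Xist (0.903) and Rsph4a, a gene of cilia (0.903). Bmp6 was most like Ints6 (0.821), Slc46a3 (0.811) and the lysyl-tRNA synthetase gene Kars (0.801). The arrays share their diet groups and the Xist split, so these values describe likeness over this set of arrays only.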

How the data were processed

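Liver RNA was measured in 18 samples on Affymetrix Mouse Genome arrays. Per the labels' protocols it was isolated with Trizol, and 100 ng went into the biotin labelling. The deposited values are linear intensity values made by the authors with MAS5, per the submitters' processing notes. The 2% trimmed mean was 100 on every array, and 42 values were 0.

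Probe sets were named through the platform annotation, with symbols brought up to date by entrez id from a RefSeq table of GRCm38.p6. Of 45101 probe sets, 64 were controls and left out, 34945 had 1 gene (34741 matched to the table), 932 several and 9160 none. Deposited intensities were turned into log2(value + 3.3), the added constant being their 20th percentile. This scale understates changes of dim genes. A probe set was kept if at least 3 arrays had it over their own 40th percentile, and the brightest stood for its gene. Tests on 14694 genes used limma 3.58.1 (R 4.3.3) on means of the 6 groups with a trended prior variance, 2-sided, adjusted after Benjamini and Hochberg. The procedure was tested on simulated data. Precision is set by the 3 arrays of a group, and the median SE between 2 groups was 0.22 in log2 units.

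The members and lists were chosen with earlier results of these data known. All members are named, and from each list up to 3 called genes of largest change, or that of smallest p where none was called. Likeness was computed for the 3 members with most calls. Lists were counted and not tested.

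Alternatives were pseudocounts of 13.2 and 0.825, quantile normalization, no dim filter and one at the 60th percentile, averaged probe sets, a prior variance without trend, array weighting, the replicate number as a block, terms for Xist and the actin ratio, a fit of only the groups compared, and single arrays left out. Removing all 4 Xist-high arrays was chosen after seeing the data.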

Additional observations from a re-analysis of the deposited data

Results flagged for a closer look

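For Hmox1 every AIM-KO array at 20 weeks lay below the AIM-KO chow mean and every WT array at 20 weeks above the WT chow mean, with changes of -0.65 in AIM-KO and 1.2 in WT. The difference of -1.84 ± 0.62 between these effects was tested by limma and did not pass (adjusted p = 0.342). For Fth1 the same held at 12 weeks, with changes of -0.08 in AIM-KO and 0.06 in WT, and the difference of -0.14 ± 0.12 did not pass (adjusted p = 0.772).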

How the results depend on the processing

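Of 108 results for single members, 9 were called, and of 2151 values under alternatives 23 lost a call, 17 gained one and 1 turned sign with a call. The turned value was Fth1 at 12 weeks in AIM-KO, 0.24 under quantile normalization. Counts of called members that moved by over 1.5 times are these. At 20 weeks AIM-KO against WT had 2 calls with array weights, and the difference of the 20 week diet effect had 1. At 20 weeks against chow AIM-KO had 1 call with the Xist term, and between 20 and 12 weeks 0. At 12 weeks against chow WT had 0 calls with a pseudocount of 0.825, with quantile normalization, with no dim filter, with a replicate block and with only the groups compared in the fit, and 2 with the Xist term. At 20 weeks against chow WT had 2 calls with only the groups compared, and between 20 and 12 weeks WT had 1 with the actin 3'/5' term. Smaller moves were AIM-KO at 12 weeks against chow, 3 as reported, with 2 calls under no dim filter, the actin term and only the groups compared and 4 under quantile normalization, and AIM-KO between 20 and 12 weeks, 2 as reported, with 3 under array weights and only the groups compared. The cause was not tested in any of these.

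On leaving out 1 array, the calls ranged over 0 to 2 for AIM-KO against WT at 20 weeks, 0 to 1 on average over diets, 2 to 3 at 12 weeks in AIM-KO, 2 to 3 between 20 and 12 weeks in AIM-KO, 0 to 0 at 12 weeks in WT, 1 to 2 at 20 weeks in WT and 0 to 2 for the difference of the 20 week effect, and the higher counts of the genotype comparisons came without WT replicate 2 at 20 weeks. The replicate block changed no other count of members past 1.5 times. Same-numbered arrays of different groups correlated between -0.09 and 0.23 in their deviations (median 0.04, with 5 of 45 pairs over 0.1). Differently numbered arrays of different groups correlated between -0.19 and 0.12. Over all alternatives the count of all genes called in AIM-KO at 20 weeks against chow ran between 197 and 2017, against 1022 as reported. Each group has 3 arrays, and Bmp6 lies near background on some of them, which limits what its values can show. Second probe sets that passed the dim filter correlated with the ones used at 0.99 for Hamp, 0.88 for Alas1, 0.83 for Fth1, 0.75 for Slc40a1 and 0.42 for Tfrc over 18 arrays, and only the 12 week change of Hamp in AIM-KO was called on them.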
